A study of Mus musculus with 6 samples.

Results

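The genes of the splicing machinery described here are 73 of the 23358 rows in a gene count table of mouse bone marrow mesenchymal stem cells. They were taken by symbol: names that start with Srsf and a digit (SR proteins), Hnrn or Hnrp (hnRNPs), Sf3a or Sf3b and a digit, Snrp, Snrnp, U2af, or Prpf and a digit, with the imprinted gene Snrpn left out. The rule uses symbols and no measured value, but it was set with earlier results of these data known. The cells were of strain C57BL/6, at passage 6 to 12. Cells adhered for 24 h, were transfected overnight and were harvested 24 h after fresh medium was added. A non-targeting siRNA served as control in 3 libraries, and 50 nM of Dia2 siRNA was used in the other 3. Dia2 is the formin encoded by Diaph3, a protein that assembles unbranched actin filaments. One Dia2 siRNA sequence was used. Whether replicates were separate cultures is not stated, so the p-values speak of the spread among these 6 libraries only, and that spread may be technical.

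The spliceosome removes introns from precursor mRNA. It is built anew on each intron from small nuclear ribonucleoproteins (snRNPs). Each is an RNA with a ring of Sm proteins, or on U6 of LSm proteins, and with its own particular proteins. U1 binds the 5′ splice site and U2 the branch point, where the U2AF heterodimer reads the 3′ splice site, and the U4/U6.U5 tri-snRNP then joins and is rearranged into the catalytic form. SR proteins mostly promote and hnRNPs often oppose the use of nearby splice sites, and many of both groups regulate the splicing of their own transcripts. A gene count adds up all isoforms, so it cannot show whether a transcript is productive or carries an exon that leads to its decay.

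Levels below are CPM, counts scaled to library size with TMM factors, and a change is the log2 fold change of Dia2 siRNA against control siRNA with its standard error (SE) and Benjamini-Hochberg adjusted p from edgeR's quasi-likelihood test over 14151 genes. Total counts were 70538768 to 110006338 per library. Diaph3, the targeted gene, stood at 84.7, 80.1 and 84.8 CPM in control replicates 1, 2 and 3, against 7.52, 8.37 and 7.39 CPM after Dia2 siRNA, so all 3 treated libraries were low. Of 10 mesenchymal stem cell markers, 9 were testable and all 9 were higher with Dia2 siRNA, against 29.3% of all genes tested. The summed level of the list was 2908 to 3208 CPM in control and 5251 to 5321 CPM in Dia2 libraries. Thy1, the remaining marker, was near 0 in both groups. Of 10 blood and macrophage markers 5 were testable, and 4 of these (Cd53, Itgb2, Cd68 and Cd14) were lower, against 29.9% of all genes tested. This list summed to 20.3 to 22.1 CPM in control and 12.2 to 13.3 CPM in Dia2 libraries, with Tyrobp at 0 in all 6 and Ptprc near 0. Of 7 endothelial markers, Vwf was higher and Kdr lower among 4 tested, Emcn and Erg had no count, and the sum lay between 1.75 and 2.20 CPM. The part of these cells in the changes below was not tested, and in bulk RNA fewer cells of a type and less RNA per cell cannot be told apart. The ribosomal precursor Rn45s took 11.7% of the counts in control replicate 3 and 10.9% in Dia2 replicate 1, against 6.00% to 7.41% in the other 4 libraries.

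Most splicing genes were modestly lower with Dia2 siRNA. Of 73 genes, 72 passed the filter on low counts, and of these 47 were lower, 9 were higher and 16 did not pass an adjusted p of 0.05. Of all genes tested, 59.2% passed in either direction. The share that was lower was 65.3% for the splicing genes and 29.9% for all genes tested, and the share that was higher was 12.5% and 29.3%. Among the 9848 genes tested whose mean CPM lay within the range of the splicing genes, 37.4% were lower and 30.5% higher. The median log2 fold change was -0.26 for the splicing genes and 0.0053 for all genes tested. Every change was smaller than 2-fold, from -0.66 for Snrnp200 to 0.96 for Snrnp27. The 3 Dia2 libraries all lay below the 3 control libraries for 49 of the 72 genes and all above for 9, while over all genes tested these shares were 32.2% and 32.3%. Without the 2 libraries richest in Rn45s, 52 splicing genes were lower and 11 higher, against 32.1% and 30.4% of all genes tested in that fit.

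**Figure D1:**
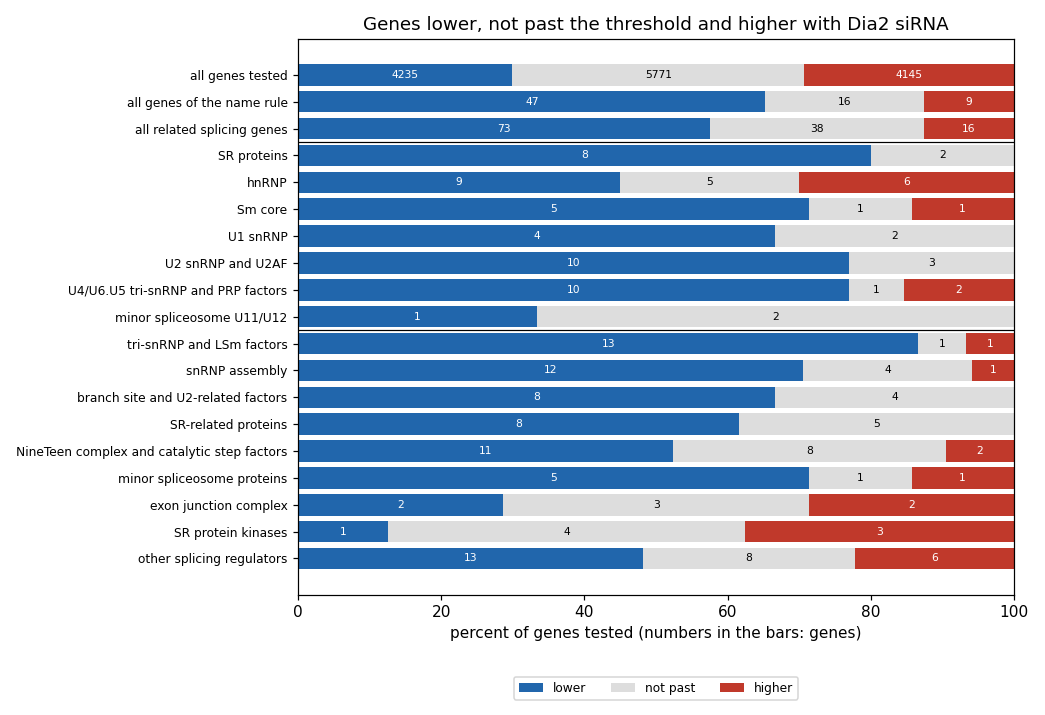
Share of tested genes that were lower (blue), not past an adjusted p of 0.05 (grey) or higher (red) with Dia2 siRNA, as percent of each list on the x axis, with the number of genes in each bar. All genes tested split almost evenly, with 4235 lower and 4145 higher, whereas 47 of the 72 splicing genes of the name rule and 73 of 127 related splicing genes were lower.

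Summed over the 73 genes, the level was 11868, 11551 and 12059 CPM with control siRNA and 10033, 9768 and 9711 CPM with Dia2 siRNA. The control libraries did not overlap the Dia2 libraries, and the mean sum was 11826 ± 257 CPM in control and 9837 ± 172 CPM with Dia2 siRNA (SD, n = 3 each), a change of -16.8%. In raw counts, with no scaling factor, these genes held 1.18% to 1.21% of the total in control and 0.961% to 0.988% in Dia2 libraries. By class, the summed level changed by -26.3% for U1, -25.3% for U4/U6.U5 and PRP factors, -19.1% for U2 and U2AF, -15.5% for SR proteins and -14.4% for hnRNPs. It changed by -9.02% for the U11/U12 particle and least, by -2.94%, for the Sm core, a sum in which Snrpb rose and 5 genes fell.

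**Figure D2:**
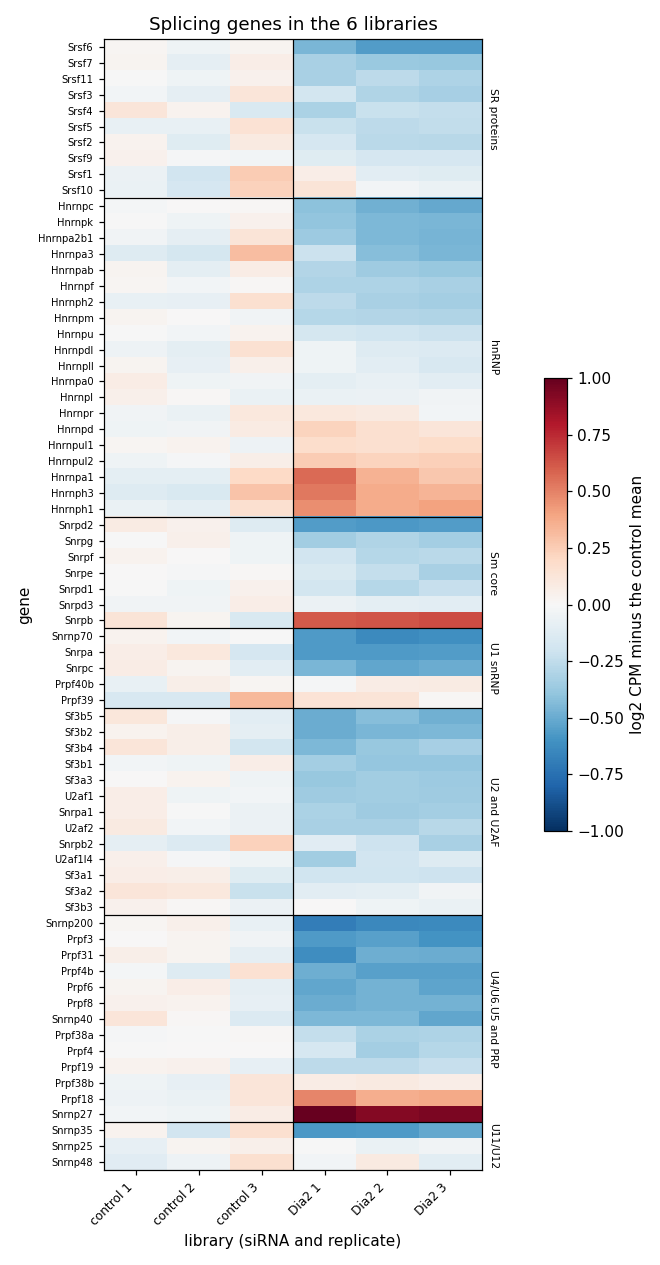
Level of each of 71 tested splicing genes in the 6 libraries, as log2 CPM minus the mean of the 3 control libraries (blue lower, red higher), grouped by class with 1 row per gene. The Dia2 columns are blue in most rows, and the rows of Snrnp27, Snrpb, Prpf18 and several hnRNPs are red.

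The U1 snRNP, which recognises the 5′ splice site, had its 3 specific proteins lower. Snrnp70, the U1-70K protein that binds the first stem loop of U1 RNA, was at 219.8, 210.4 and 213 CPM with control siRNA and 145, 138 and 140.4 CPM with Dia2 siRNA. It fell 1.52-fold, or by 0.61 ± 0.043 on the log2 scale (± SE; adjusted p = 2.24e-07). Snrpa, which encodes U1-A, the protein of the second stem loop, stood at 60.1, 61.8 and 51.1 against 38.9, 38.9 and 39.0 CPM, with control replicate 3 closest to the Dia2 libraries, and fell at -0.57 ± 0.068 (adjusted p = 1.75e-05). Snrpc, encoding U1-C, which steadies the pairing of U1 with the splice site, fell from 77.2 ± 4.82 to 54.8 ± 1.19 CPM (SD, n = 3 each; -0.49 ± 0.053, adjusted p = 7.47e-06). For these 3 genes no Dia2 library reached a control library. The U1-associated factors Prpf40b and Prpf39, both scarce, did not pass (0.05 and 0.081). Prpf39 was highest in control replicate 3, at 20.3 CPM against 14.5 and 14.5, and was higher with Dia2 siRNA without that library (0.25, adjusted p = 0.000994). Its value was slightly negative and did not pass without control replicate 1 (-0.010, adjusted p = 0.949) or control replicate 2 (-0.0042, adjusted p = 0.98). The direction of Prpf39 thus depended on which control library was left out.

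In the U2 snRNP and U2AF, 10 of 13 genes were lower (76.9%) and none higher, against 37.4% lower among all genes tested within the splicing genes' CPM range. Sf3b1, the large subunit that clamps the branch point helix, was at 373, 369.6 and 398 CPM in control and 301, 290.4 and 290.5 CPM in Dia2 libraries (-0.37 ± 0.047, adjusted p = 2.79e-05). Its partners in the SF3B complex, Sf3b2, Sf3b4 and Sf3b5, fell at -0.47, -0.39 and -0.47, and Sf3b5, the most abundant gene of the class per coding length, stood at 91.6, 83.9 and 78.7 against 60.1, 62.8 and 60.7 CPM. Sf3b3, in the same complex, did not pass, at 254 ± 9.44 and 248 ± 6.18 CPM (SD, n = 3 each; -0.036 ± 0.046, adjusted p = 0.526), but was lower without the 2 libraries richest in Rn45s (-0.087, adjusted p = 0.0257). Of the SF3A complex, which bridges U2 to the SF3B proteins, Sf3a3 fell at -0.36 and Sf3a1 at -0.20. Sf3a2 (-0.088, adjusted p = 0.358) was low in control replicate 3, at 59.4 CPM against 75.4 and 74.9, and was lower with Dia2 siRNA without that library (-0.19, adjusted p = 0.000193). Sf3b6, which the table lists under an older name, lies outside the name rule.

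Both arms of U2AF were lower. U2af1, the small subunit that reads the AG at the intron end, was at 107, 99.3 and 101 CPM in control and 79.8, 80.4 and 80.2 CPM in Dia2 libraries (-0.35 ± 0.045, adjusted p = 3e-05). U2af2, the large subunit that binds the pyrimidine tract, was at 211, 195 and 191 and 159, 159 and 164 CPM (-0.31 ± 0.048, adjusted p = 0.000148). All Dia2 values lay below all control values for both. The scarcer paralog U2af1l4 also fell (-0.22 ± 0.076, adjusted p = 0.0261), but 65.6% of its exon bases are shared with an annotated gene on the same strand, and the call was lost under 7 of 17 alternatives, 4 of them each leaving out 1 library (control replicate 1 or 2, Dia2 replicate 1 or 2). Of the U2-specific proteins, Snrpa1 fell (-0.34, adjusted p = 0.000177), whereas Snrpb2 narrowly missed the threshold (-0.22, adjusted p = 0.0503), with control replicate 3 above the other 5 libraries at 57.7 CPM. It was lower under 9 of the 17 alternatives, among them DESeq2 (-0.23, adjusted p = 0.0287) and the fit without the 2 libraries richest in Rn45s (-0.15, adjusted p = 0.017).

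The U4/U6.U5 tri-snRNP and the PRP factors held both the gene that fell most, Snrnp200, and the one that rose most, Snrnp27. Of 13 genes, 10 were lower (76.9%) and 2 higher (15.4%), with a median log2 fold change of -0.48. Among all genes tested within the splicing genes' CPM range these shares were 37.4% and 30.5%. Snrnp200 encodes BRR2, the helicase that unwinds U4 from U6 to activate the spliceosome. It stood at 407, 416 and 380.1 CPM in control replicates 1, 2 and 3, against 248, 256 and 258 CPM after Dia2 siRNA, and fell 1.58-fold (-0.66 ± 0.048, adjusted p = 2.94e-07). Prpf8, the scaffold around the catalytic centre, was at 624, 619 and 572 against 429, 435 and 436 CPM (-0.48 ± 0.048, adjusted p = 3.73e-06). In both genes the gap between the groups was wider than the whole range of either group.

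Genes that hold the U4/U6 and U5 particles together were lower as well. Prpf3, a U4/U6 protein, was at 42.7, 43.3 and 41.5 CPM in control and 28.7, 29.2 and 28.1 CPM with Dia2 siRNA (-0.57 ± 0.054, adjusted p = 2.52e-06). Prpf31, which binds the U4 RNA, was at 56.6, 55.5 and 51.1 and 35.4, 38.7 and 38.5 CPM (-0.54 ± 0.059, adjusted p = 9.05e-06), and Prpf6, the bridge between U5 and U4/U6, at 112, 115 and 103 and 76.9, 79.3 and 76.1 CPM (-0.51 ± 0.05, adjusted p = 3.48e-06). Prpf4b, a kinase that phosphorylates tri-snRNP proteins, was at 79.9, 74.3 and 90.2 and 57.9, 55.6 and 55.7 CPM (-0.53 ± 0.065, adjusted p = 2.07e-05). None of these 4 genes overlapped between groups. Snrnp40, a U5 protein, fell at -0.48, and smaller falls were seen for Prpf38a (-0.29), Prpf4 (-0.27) and Prpf19 (-0.25). Prpf19 is the ubiquitin ligase that gives the Prp19 complex its name, and stood at 238, 240.4 and 220.1 against 194, 195 and 199 CPM (adjusted p = 0.000598).

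Snrnp27, which encodes a small protein of the tri-snRNP, went the other way. It was scarce in control cells, at 13.3, 13.2 and 14.3 CPM, and stood at 27.7, 25.7 and 26.1 CPM in the Dia2 libraries, 1.95-fold higher (0.96 ± 0.062, adjusted p = 1.05e-07). Prpf18, a factor of the second catalytic step, rose from 33.9, 33.5 and 38.3 to 49.4, 45.1 and 45.6 CPM (0.41 ± 0.066, adjusted p = 0.00019), with control replicate 3 the highest of its group and still below every Dia2 library. Prpf38b did not pass (0.072, adjusted p = 0.288), although it was higher without control replicate 3 (0.13, adjusted p = 0.0135).

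**Figure D3:**
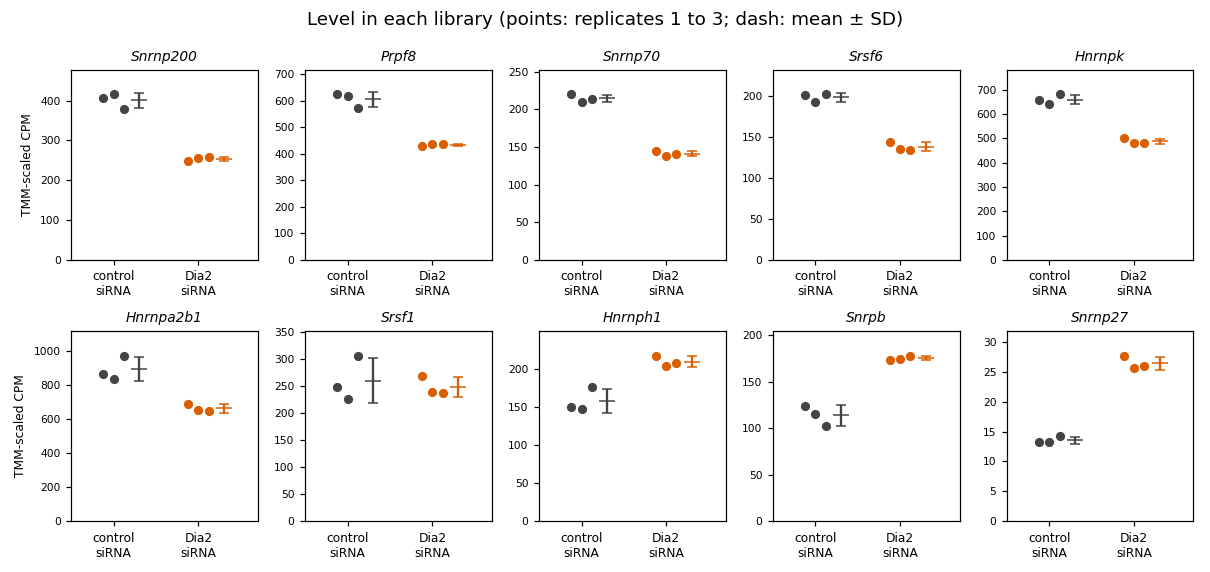
TMM-scaled CPM (y axis, from 0) of 10 splicing genes in the control (dark grey) and Dia2 siRNA (orange) libraries, with 1 point per replicate and the mean ± SD beside it. The groups are apart for every gene shown except Srsf1, with Snrnp200, Prpf8, Snrnp70, Srsf6, Hnrnpk and Hnrnpa2b1 lower and Hnrnph1, Snrpb and Snrnp27 higher.

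The start regions of these genes are shown for the members at the ends of the range, the 3 largest falls and the largest rise. RefSeq windows on GRCm38.p6, from 250 bases before to 50 after an annotated start, were matched for 63 of the 73 genes and gave 81 windows, since some genes have several starts. Capitals mark any match, on either strand, to 1 of 7 motifs. These were the words CCAAT for the factor that binds that box, GGGCGG for the GC box of Sp1 and its relatives, TATAAA for the promoter element of that name, and CACGTG for the E-box bound by Myc. The others were AAGATGG for the core of the factor YY1, CCGGAAG for the core shared by ETS factors, and GCGCATG for the core of the factor NRF1. Matches of different motifs may overlap. The window of Snrnp200 is chr2:127208136-127208435 on the plus strand, that of Snrnp70 chr7:45395693-45395992, the one shown for Prpf3 chr3:95855704-95856003 and that of Snrnp27 chr6:86684442-86684741, these 3 on the minus strand.
Snrnp200: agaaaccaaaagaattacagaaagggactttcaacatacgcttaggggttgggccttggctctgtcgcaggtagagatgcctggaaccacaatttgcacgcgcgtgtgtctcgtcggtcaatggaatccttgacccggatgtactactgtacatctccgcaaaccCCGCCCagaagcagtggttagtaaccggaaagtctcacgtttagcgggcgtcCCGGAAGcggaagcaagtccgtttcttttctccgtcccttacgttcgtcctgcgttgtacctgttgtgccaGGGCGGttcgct
Snrnp70: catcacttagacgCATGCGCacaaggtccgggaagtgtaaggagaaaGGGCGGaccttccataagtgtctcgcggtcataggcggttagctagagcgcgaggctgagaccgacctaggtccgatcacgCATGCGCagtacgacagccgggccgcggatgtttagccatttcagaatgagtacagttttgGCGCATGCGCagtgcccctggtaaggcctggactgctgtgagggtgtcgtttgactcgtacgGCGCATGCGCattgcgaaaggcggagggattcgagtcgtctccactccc
Prpf3: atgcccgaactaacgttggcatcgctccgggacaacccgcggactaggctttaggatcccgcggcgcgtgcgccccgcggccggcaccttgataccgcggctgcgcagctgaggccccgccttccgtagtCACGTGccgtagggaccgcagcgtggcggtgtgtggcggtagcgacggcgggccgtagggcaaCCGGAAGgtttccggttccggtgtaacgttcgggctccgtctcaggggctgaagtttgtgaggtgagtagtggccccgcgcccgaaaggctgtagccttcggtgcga
Snrnp27: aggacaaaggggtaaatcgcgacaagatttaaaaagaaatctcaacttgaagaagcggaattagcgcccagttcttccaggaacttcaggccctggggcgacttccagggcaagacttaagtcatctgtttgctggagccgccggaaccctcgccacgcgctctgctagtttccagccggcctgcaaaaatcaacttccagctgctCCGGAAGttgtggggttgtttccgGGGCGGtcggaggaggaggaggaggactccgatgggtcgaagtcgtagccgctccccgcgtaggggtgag

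The ETS core was in 32.1% of the 81 windows, in 15.9% of the 12640 windows of tested genes and in 8.86% of all 32851 windows. The GC box was in 69.1%, 60.7% and 35.7% of these 3 sets, and the E-box in 13.6%, 9.57% and 7.15%. CCAAT was in 46.9%, 37.9% and 37.4%, and TATAAA in 8.64%, 7.43% and 13.6%. AAGATGG was in 3.70%, 6.73% and 6.34%, and GCGCATG in 8.64%, 6.44% and 3.91%. By direction, the ETS core was in 39.6% of the 53 windows of 41 lower genes and in 2 of the 10 windows of 6 higher genes. The GC box was in 56.6% and in all 10 of these windows, but several of the 10 are starts of Hnrnph1 alone, some of them overlapping. With so few windows of higher genes no test was made. Windows of 1 gene can overlap, and a match describes the sequence only.

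Of 7 Sm core genes, which encode the ring that encircles most spliceosomal RNAs, 5 were lower (71.4%), 1 was higher and 1 did not pass. Among all genes tested within the splicing genes' CPM range 37.4% were lower. Snrpd2 fell furthest, from 77.6, 75.4 and 66.9 CPM to 49.7, 49.0 and 49.6 CPM (-0.57 ± 0.058, adjusted p = 4.28e-06). Snrpg, the most abundant of the 7 per coding length, was at 81.0, 84.1 and 78.7 and 64.0, 65.9 and 64.2 CPM (-0.33 ± 0.045, adjusted p = 5.69e-05). Snrpf, Snrpe and Snrpd1 fell at -0.25, -0.24 and -0.23, and Snrpd3 did not pass (-0.088, adjusted p = 0.113). Snrpb, which encodes the SmB and SmB′ proteins, rose 1.54-fold, from 124, 115 and 102 to 173, 175 and 178 CPM (0.62 ± 0.062, adjusted p = 3.89e-06). Every Dia2 library stood above every control library for Snrpb, while the Dia2 libraries of the other 6 Sm genes lay below all control libraries. Over all genes tested, the Dia2 libraries lay all above in 32.3% and all below in 32.2%.

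SR proteins bind exonic enhancers through RNA recognition motifs and recruit U1 and U2AF through arginine-serine repeats. Of the 10 tested, 8 were lower (80.0%) and none higher, against 37.4% lower among all genes tested within the splicing genes' CPM range. Srsf6 fell furthest, from 201, 192 and 202 CPM in control to 144, 135 and 134 CPM in Dia2 libraries (-0.53 ± 0.046, adjusted p = 1.32e-06). Srsf3, the smallest SR protein and a factor in mRNA export, was at 252, 241 and 279 and 226, 208 and 204 CPM (-0.27 ± 0.061, adjusted p = 0.00195). Srsf2, the class member with the highest level per coding length, was at 209.5, 188 and 218 and 183, 169.6 and 169 CPM (-0.24 ± 0.058, adjusted p = 0.00351). In both genes the lowest control library, replicate 2, was still above every Dia2 library.

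The falls of Srsf7, Srsf11, Srsf4 and Srsf5 were -0.36, -0.30, -0.26 and -0.25. Srsf9 had the smallest, -0.15 (adjusted p = 0.0137), and lost its call without control replicate 1 (-0.14, adjusted p = 0.0623), Dia2 replicate 2 (-0.14, adjusted p = 0.076) or Dia2 replicate 3 (-0.15, adjusted p = 0.0664). Srsf1, the archetype of the family, was the exception among the abundant members. It was at 247, 225 and 305 CPM in control and 269, 239 and 237 CPM in Dia2 libraries, so the groups overlapped and control replicate 3 was the highest of all 6 (-0.063 ± 0.095, adjusted p = 0.593). Without that library the value was positive and did not pass (0.069, adjusted p = 0.348). Srsf10, a splicing repressor when dephosphorylated, stood at 81.2, 75.5 and 99.9 and 92.7, 83.2 and 81.2 CPM and did not pass (adjusted p = 0.976). Srsf12 had counts of 6, 0 and 6 in control and 4, 4 and 4 in Dia2 libraries, at or under the floor of 6 counts, and was not tested.

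**Figure D4:**
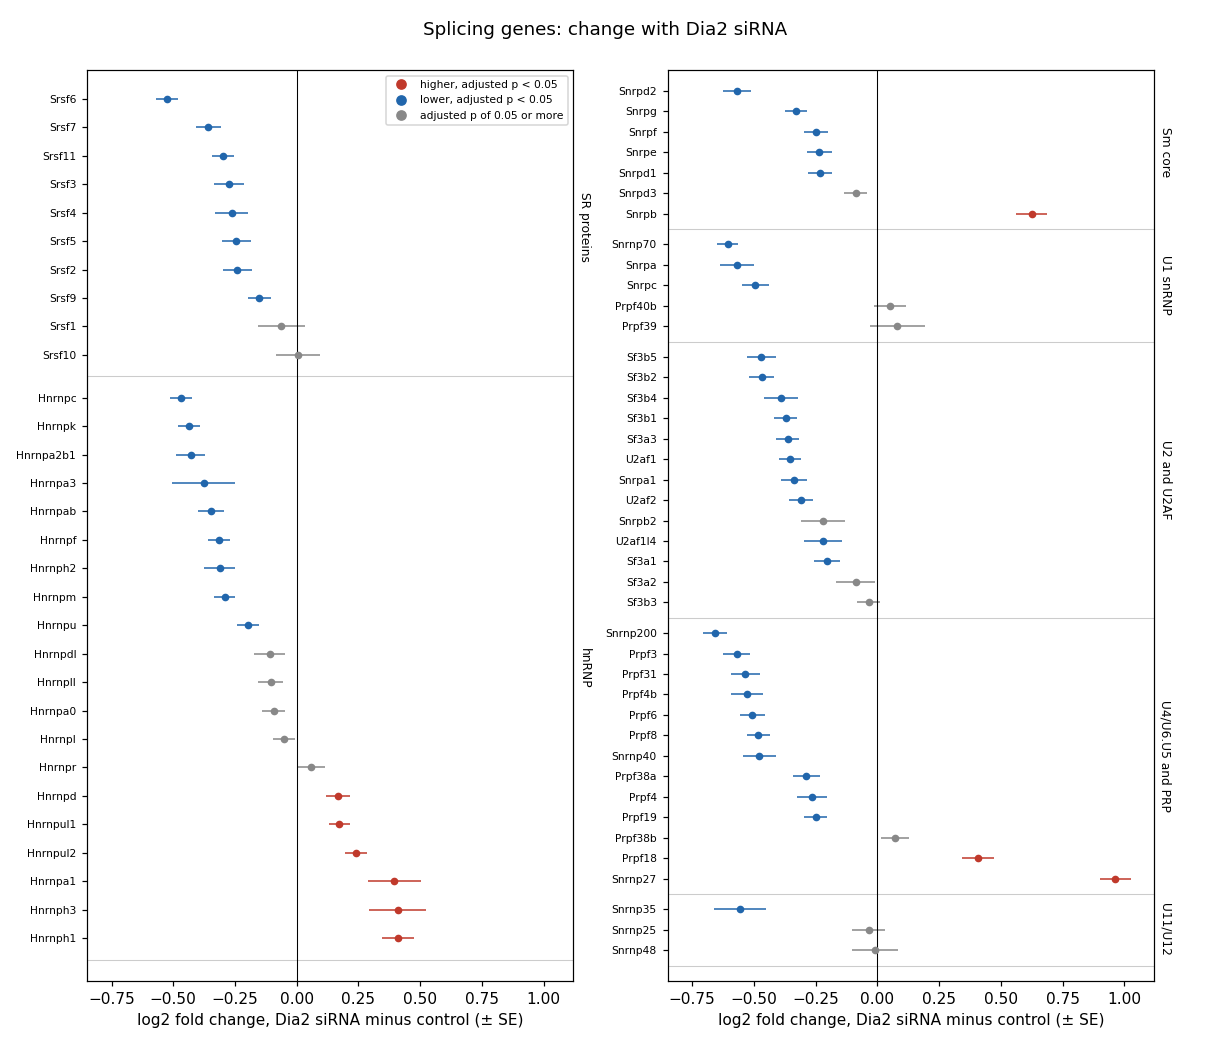
Log2 fold change of Dia2 siRNA minus control siRNA (x axis) for 71 tested splicing genes, with bars of ± 1 SE, sorted within each class. Blue and red points passed an adjusted p of 0.05. SR, U1 and U2 genes lie left of 0 apart from 3 grey points, and the hnRNPs spread to both sides, from -0.47 for Hnrnpc to 0.41 for Hnrnph1.

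The hnRNPs, abundant proteins that coat nascent RNA, split into both directions: 9 of 20 were lower, 6 higher and 5 did not pass. Both directions were also common among all genes tested within the splicing genes' CPM range, with 37.4% lower and 30.5% higher. The share of hnRNPs that rose was thus near that of these genes. Hnrnpk, which binds C-rich stretches and had the highest level per coding length of all 73 genes, was at 656, 641 and 681 CPM in control and 500.3, 483 and 479.7 CPM in Dia2 libraries (-0.44 ± 0.046, adjusted p = 5.61e-06). Hnrnpa2b1, whose products A2 and B1 favour exon skipping, was at 868, 838 and 973 and 692, 651 and 647 CPM (-0.43 ± 0.059, adjusted p = 5.38e-05). Hnrnpc, which forms tetramers on U-rich RNA, fell at -0.47 ± 0.044 (adjusted p = 2.39e-06), from 266, 269 and 271 to 202, 192 and 189 CPM. In these 3 genes all control libraries lay above all Dia2 libraries.

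Hnrnpab, Hnrnpf, Hnrnph2 and Hnrnpm fell at -0.35, -0.31, -0.31 and -0.29. Hnrnpu, a nuclear scaffold protein, fell less, from 628, 616 and 645 to 558, 548 and 541 CPM (-0.20 ± 0.044, adjusted p = 0.00194). Hnrnpa3 also fell (-0.38 ± 0.13, adjusted p = 0.0325), but it was high in control replicate 3, at 278 CPM against 204 and 198, and did not pass with DESeq2 (-0.38, adjusted p = 0.0652), with no filter on low counts (-0.38, adjusted p = 0.105), or without Dia2 replicate 2 (-0.35, adjusted p = 0.0527) or 3 (-0.34, adjusted p = 0.0526). Hnrnpdl, Hnrnpll, Hnrnpa0, Hnrnpl and Hnrnpr did not pass, with log2 fold changes from -0.11 to 0.056. Each passed when certain libraries were left out. Without control replicate 3, Hnrnpa0 (-0.11, adjusted p = 0.0103) and Hnrnpl (-0.087, adjusted p = 0.0272) were lower and Hnrnpr was higher (0.11, adjusted p = 0.0204). Without control replicate 2, Hnrnpll (-0.15, adjusted p = 0.0298) and Hnrnpdl (-0.16, adjusted p = 0.0497) were lower. Hnrnpa0, Hnrnpl and Hnrnpll were also lower without the 2 libraries richest in Rn45s.

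Among the hnRNPs that rose, Hnrnph1, a binder of G-rich runs, was the most changed of the abundant ones, at 149.8, 147 and 175 CPM in control and 217, 203 and 207 CPM in Dia2 libraries (0.41 ± 0.064, adjusted p = 0.000152). Of its close relatives, Hnrnpf and Hnrnph2, as given above, fell, and Hnrnph3, given below, rose. Hnrnpul2 and Hnrnpul1, named for their likeness to Hnrnpu, rose at 0.24 ± 0.044 and 0.17 ± 0.042 (adjusted p = 0.000588 and 0.00366), from 205, 209 and 219.8 to 252, 246 and 249.7 CPM and from 129, 131 and 123 to 144, 143 and 145 CPM. Hnrnpd, the AU-rich element binder AUF1, rose at 0.17 ± 0.049 (adjusted p = 0.0111), from 134, 135 and 146 to 161, 155 and 150.0 CPM, and did not pass without control replicate 1 (0.14, adjusted p = 0.0513) or Dia2 replicate 1 (0.14, adjusted p = 0.0682).

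Hnrnpa1 and Hnrnph3 rose from low levels. Hnrnpa1, a splicing repressor, was at 5.66, 5.67 and 6.96 CPM in control and 8.98, 7.71 and 7.33 CPM in Dia2 libraries (0.40 ± 0.11, adjusted p = 0.00714). Its level per coding length, 3.18 CPM per kilobase, was far below the 219 of its paralog Hnrnpa2b1. Transcripts of 8 annotated pseudogenes match the Hnrnpa1 transcript at 95% identity or more over at least 200 bases and together cover 50.4% of it. The counting of reads with several matches is not stated, so the level of Hnrnpa1 is uncertain. Hnrnph3 was at 5.54, 5.45 and 7.37 and 8.74, 7.85 and 7.67 CPM (0.41 ± 0.12, adjusted p = 0.00902) and did not pass without control replicate 1 (0.33, adjusted p = 0.0507). For both genes the order within groups was alike, with control replicate 3 and Dia2 replicate 1, the 2 libraries richest in Rn45s, the highest of their groups.

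Near-identical copies of this kind were found for 21 of the 73 genes. Hnrnpa3 had the most, 26 genes covering 92.3% of its transcript. Copies covered 74.7% of U2af1, 68.3% of U2af2, 66.6% of Sf3b4, 62.6% of Snrpa, 55.5% of Snrpe, 54.3% of Srsf5, 53.6% of Snrpc and 52.0% of Hnrnpf. Exons on the opposite strand covered over 5% of the exon bases of 14 genes. The largest shares were 85.4% for Snrpf (Ccdc38 and a further gene), 43.0% for Srsf4, 29.1% for Hnrnpab (Phykpl), 26.5% for Hnrnpf and 25.3% for Srsf2 (Mfsd11 and Mettl23). The strand setting is not stated either, so reads of such partners cannot be told apart. On the same strand, exons of March2 covered 14.7% of the exon bases of Hnrnpm. Snrnp200 (chr2:127208386-127240451, plus strand), Snrnp70 (chr7:45376453-45395742, minus strand), Prpf8 (chr11:75486816-75509449, plus strand) and Snrnp27 (chr6:86675151-86684522, minus strand) had no such copy, and no exon of another annotated gene over their own exons (GENCODE M21, GRCm38).

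The minor spliceosome, which removes the rare U12-type introns, is represented by 3 genes of the U11/U12 particle, all scarce. Snrnp35, a counterpart of U1-70K, was at 6.16, 5.26 and 6.70 CPM in control and 4.04, 4.06 and 4.21 CPM in Dia2 libraries, with no overlap (-0.56 ± 0.10, adjusted p = 0.000607). Snrnp25 (11.6, 12.5 and 12.7 against 12.3, 11.7 and 11.9 CPM) and Snrnp48 did not pass (adjusted p = 0.662 and 0.936).

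Levels per kilobase of coding length in control cells spanned 0.0159 for Srsf12 to 333 CPM for Hnrnpk, with a median of 47.1 CPM. After Hnrnpk came Hnrnpa2b1 (219), Snrpg (207), Snrpd3 (203) and Hnrnpf (182). The first genes of their classes were Srsf2 at 108, Snrnp70 at 131, Sf3b5 at 115, Prpf8 at 80.9 and Snrnp25 at 14.8 CPM per kilobase. The length is the one the deposited table calls coding length, which for Hnrnpa2b1 is 4085 bases. The genes that fell lay between Snrnp35 at 5.53 and Hnrnpk. Below Snrnp35, Hnrnph3 (2.82) and Hnrnpa1 (3.18) were higher, and Prpf40b (3.81), Prpf39 (4.04) and Snrnp48 (4.18) did not pass.

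**Figure D5:**
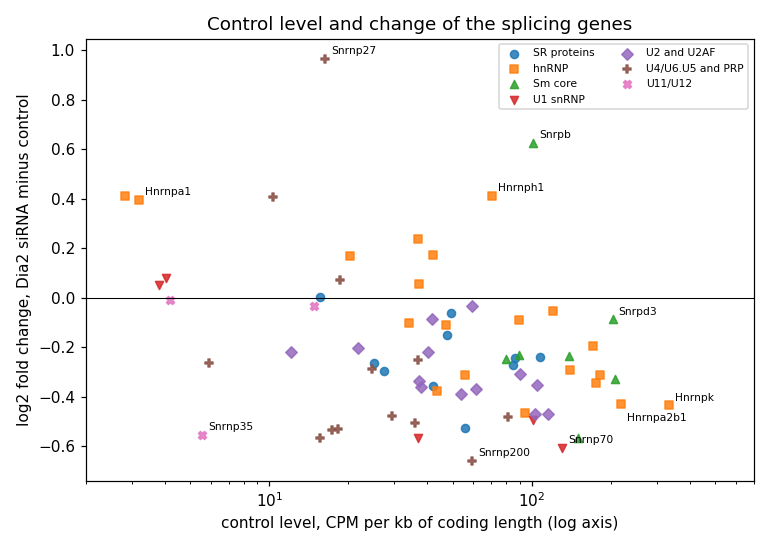
Control level in CPM per kilobase of coding length (x axis, log scale) against the log2 fold change of Dia2 siRNA minus control (y axis) for 71 tested splicing genes, with 1 symbol per class. Most points lie below 0, the scarcest genes at the left lie on both sides of it, and Snrnp27, Snrpb and Hnrnph1 stand above it.

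Splicing genes outside the name rule moved in the same direction on balance. The 128 such genes were listed by function, with earlier results of these data known. Of them 127 were tested, and 73 were lower, 16 higher and 38 did not pass, with a median log2 fold change of -0.20. The share that was lower was 57.5%, against 29.9% of all genes tested and 37.4% of those within the CPM range of the name-rule genes. Of 15 tri-snRNP and LSm genes (LSm proteins form the ring on U6 RNA) 13 were lower and 1 higher, with Lsm4 from 70.6 ± 6.31 to 39.9 ± 1.28 CPM (SD, n = 3 each; -0.82 ± 0.064, adjusted p = 4.8e-07). Eftud2, the U5 GTPase that works with Prpf8 and Snrnp200, fell at -0.54 and Sart3, which helps U4 and U6 to pair again, at -0.48. Of 12 branch site and U2-related genes 8 were lower and none higher, led by Phf5a, a small SF3B subunit (60.5 ± 5.13 to 32.6 ± 1.10 CPM; -0.89 ± 0.065, adjusted p = 2.68e-07). Dhx15, the helicase that takes spliceosomes apart, fell at -0.56, though not past the threshold without the 2 libraries richest in Rn45s (-0.61, adjusted p = 0.0672), and Puf60, a U2AF-related factor, fell at -0.44.

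Over all genes tested 29.9% were lower and 29.3% higher, or 37.4% and 30.5% within the splicing genes' CPM range. Genes of snRNP assembly were lower in 12 of 17 cases and higher in 1, Tgs1 (0.33), the enzyme that further methylates the cap of snRNAs. The largest falls were those of Wdr77 and Prmt5, the partners that methylate Sm proteins, from 83.8 ± 6.39 to 47.7 ± 1.91 CPM and from 104 ± 6.84 to 62.9 ± 1.05 CPM (-0.81 ± 0.06 and -0.73 ± 0.053; adjusted p = 3.02e-07 and 2.47e-07). Gemin4, of the SMN complex that loads the Sm ring, fell at -0.72, and Smn1 itself, from 28.2 ± 1.87 to 19.3 ± 1.47 CPM, at -0.54. Of 13 SR-related genes 8 were lower and none higher, with Rbm25 from 107 ± 4.97 to 62.5 ± 0.983 CPM (-0.78 ± 0.047, adjusted p = 6.73e-08), Acin1 at -0.68 and Pnn at -0.61. In the Prp19 complex and catalytic step list 11 of 21 were lower and 2 higher, with Dhx38, Plrg1 and Snw1 at -0.47, -0.36 and -0.36. Of 7 further minor spliceosome genes 5 were lower and 1 higher, with Zrsr1 at 0.45, Scnm1 at -0.39 and Zrsr2 at -0.31.

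Lists that regulate splicing are given beside shares of 29.9% lower and 29.3% higher over all genes tested. Within the CPM range of the name-rule genes these shares were 37.4% and 30.5%. Among 8 kinases of SR proteins 3 were higher and 1 lower: Srpk2 rose at 0.51 ± 0.057 (adjusted p = 9.89e-06), Clk1 at 0.36 and Dyrk1a at 0.28, and Clk3 fell from 39.1 ± 2.52 to 24.8 ± 1.85 CPM (-0.66 ± 0.071, adjusted p = 7.21e-06). Of 7 exon junction complex genes 2 were lower and 2 higher (28.6% each, near the shares over all genes), with Magohb at -0.59, Rnps1 at 0.51 and Casc3 at 0.33. Of 27 other regulators 13 were lower (48.1%) and 6 higher (22.2%). Ptbp3, a polypyrimidine tract binder, rose 2.38-fold, from 49.3, 49.7 and 61.3 CPM in control to 138, 125 and 117 CPM in Dia2 libraries (1.25 ± 0.084, adjusted p = 1.42e-07), whereas its paralog Ptbp1 fell from 575 ± 33.3 to 430.0 ± 5.92 CPM (-0.42 ± 0.051, adjusted p = 2.03e-05). Qk, the quaking protein, rose 1.93-fold, from 126, 119 and 150.0 to 268, 248 and 246 CPM (0.95 ± 0.075, adjusted p = 5.31e-07), and Celf1 fell at -0.59. Of all 199 tested genes of the name rule and these lists, Ptbp3 alone changed at least 2-fold.

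Words of 7 bases in the 3′ UTR were looked up because such words bear on how an siRNA can act on other transcripts. The words TATGTGA and its neighbour ATGTGAA, and also GCAGTAC, were picked out earlier from the fold changes of these same libraries, and AACTTAA is the word that pairs with the seed, bases 2 to 8, of the Dia2 siRNA's guide (antisense) strand. TATGTGA or ATGTGAA was in the annotated 3′ UTR of 15 of 72 splicing genes (20.8%), against 24.8% of 12093 tested genes with a 3′ UTR. The median log2 fold change was -0.23 for the 15 and -0.29 for the other 57, lower without the words than with them, where all tested genes with a 3′ UTR had medians of -0.06 with and 0.017 without. AACTTAA was also in 15 of the 72 (20.8%, against 14.0% of tested genes), with medians of -0.063 with and -0.31 without it, against 0.05 and -0.009 over all tested genes. GCAGTAC was in 1, Snrnp35. Of the 15 splicing genes with TATGTGA or ATGTGAA, 13 had a negative log2 fold change, against 1672 of 3004 tested genes with these words. Among the 15, Hnrnpa2b1, Hnrnpa3, Hnrnpc, Hnrnpu, Prpf19, Prpf4, Prpf4b, Snrpc and Snrpd1 were lower. Hnrnpul2 rose, and Hnrnpr, Hnrnpdl, Srsf1, Snrpd3 and Snrnp48 did not pass. As examples of the sequence only, the sites of 3 fallen genes are shown with the word in capitals. The words lie on GRCm38 at chr13:34901786-34901792 (plus strand), chr14:52073971-52073977 and chr6:51462917-51462923 (both minus strand).
Prpf4b: ttgtgtctTATGTGAaatttcac
Hnrnpc: aattacccATGTGAAgtactctt
Hnrnpa2b1: caggtgacATGTGAAaccttttt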

How the data were processed

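RNA-seq gene counts of 6 libraries were analysed, 3 per siRNA, grouped by the sample titles. The authors used bcl2fastq, TopHat2 2.0.6 and HTSeq per the submitters' processing notes, which name the human builds hg19 and GRCh37. The rows are mouse genes, and 99.3% of 20762 matched rows overlap their gene in GRCm38.p6. For strandedness and multiply matching reads, settings were not given in the sources used here. Per the file headers, the authors deposited a gene count and an RPKM value per library; every count is even. The RPKM values were only checked against the counts, and the deposited coding length gave levels per kilobase.

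Here, counts were filtered with filterByExpr (minimum 10 in a library, 15 in total), TMM-scaled and compared by edgeR 4.0.16's quasi-likelihood test (limma 3.58.1, R 4.3.3) with Benjamini-Hochberg adjustment over all genes at 0.05. The SE is the log2 fold change over the square root of F. DESeq2 1.42.0, limma-voom, other scalings and filters, halved counts, a replicate block and left-out libraries were alternatives. The fit was tested on simulated data. Promoters are from RefSeq. Copies are GENCODE M21 transcripts matched by blastn.

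The genes and lists were chosen with earlier results of these data known. Named genes are Diaph3, the up to 10 largest rises and 10 largest falls past the threshold with a mean CPM of at least 2 and no overlap between groups, 15 central genes whatever their p, the most abundant gene of each class, and up to 3 per related list; others describe their class. One tested gene is counted but not reported here by name or plotted on its own.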

Additional observations from a re-analysis of the deposited data

How the results depend on the processing

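The counts of splicing genes held within 1.5 times of 47 lower and 9 higher under all 17 alternatives run, from 44 to 52 lower and 7 to 12 higher, and the counts over all genes and over the related genes did so too. Over all genes tested, 22.7% to 33.2% were lower and 21.6% to 33.2% higher under these alternatives. Of the 56 calls, 51 kept their side and direction throughout, 44 lower and 7 higher; the others were U2af1l4, Hnrnpa3, Srsf9, Hnrnpd and Hnrnph3. The median of the splicing genes ran from -0.29 to -0.23, and that of all genes tested from -0.013 to 0.04. Leaving out 1 library gave 44 to 50 lower and 7 to 12 higher, where 25.7% to 32.3% of all genes tested were lower and 25.4% to 31.1% higher. Leaving out both libraries richest in Rn45s gave 52 lower and 11 higher, against 32.1% and 30.4% of all genes tested. Srsf1, with no call, changed sign to 0.0086, adjusted p = 0.863 without those 2 libraries and to 0.069, adjusted p = 0.348 without control replicate 3 (from -0.16 to 0.069 over the 6 fits that each left out 1 library); the cause was not tested. Srsf10, Snrnp48 and Prpf39, also with no call, changed sign under some alternatives as well. Dhx15 did not pass without the 2 libraries richest in Rn45s (-0.61, adjusted p = 0.0672).

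With the replicate number as a block, 46 splicing genes were lower and 9 higher, against 27.5% and 27.4% of all genes tested. Same-numbered libraries deviated from their group means with correlations of 0.0036, -0.0014 and -0.084, so the numbers are not shown to pair the libraries.

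A floor of 6 counts corresponds to 0.0545 to 0.0851 CPM and limits only Srsf12 among these genes. The labels do not tie libraries to cultures, a single Dia2 siRNA sequence was used, and gene counts hold no isoform information.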
